A study of Mus musculus with 12 samples.

Results

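Fibroblasts of the mouse lung that carry a PDGFRa-GFP reporter were sorted into a GFP-bright and a GFP-dim subset, and the comparison described here is bright against dim in animals that had undergone pneumonectomy (PNX, surgical removal of part of the lung) while expressing a dominant negative form of FGFR2 (dnFGFR). It rests on 4 of the 12 arrays of the series, 2 labelled PDGFRa-GFP bright PNX dnFGFR and 2 labelled PDGFRa-GFP dim PNX dnFGFR, chosen by those labels. The other 8 arrays were 2 bright and 2 dim arrays from pneumonectomised animals without dnFGFR (PNX) and 2 bright and 2 dim arrays from sham-operated animals (SHAM). Lungs were taken 5 days after surgery, digested with dispase and sorted by flow cytometry, 2000 cells entered each sample, and the RNA was amplified over 25 cycles before hybridisation to an Affymetrix array. All groups carried the reporter. The labels do not give the promoter that drives dnFGFR, or whether a replicate was 1 animal or a pool. The labels call the replicates biological, and the p-values below measure the spread between these arrays. The question the design poses is how the subsets of the alveolar interstitium stand apart when FGF receptor signalling is impaired during compensatory lung growth.

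PDGF receptor alpha is carried by mesenchymal cells of the lung interstitium, among them lipid-storing fibroblasts beside the alveoli and alveolar myofibroblasts, which lay down elastin at the tips of growing septa. Fibroblast growth factors signal through FGFR1 to FGFR4, receptor tyrosine kinases whose ligands FGF7 and FGF10 are made by lung mesenchyme and act on epithelium, and whose feedback inhibitors include the sprouty proteins. A dominant negative receptor binds ligand but cannot pass the signal on, and it blocks the normal receptors with which it pairs. After pneumonectomy the remaining lung grows and forms new septa.

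Values are signals on the log2 scale (1 unit is a factor of 2), for 1 probe set per gene. A difference is the mean of the 2 bright-labelled arrays minus that of the 2 dim-labelled arrays, with its standard error from limma, and a gene passed at an adjusted p below 0.05. The median of all values, log2 5.101, served as a filter: 11073 of 17097 genes exceeded it on 2 or more arrays and were tested. Differences of genes below that level in 1 subset are uncertain in size, so most are also given with every lower value set to 5.101 (the held difference).

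The reporter's own gene ran against the labels, so "bright-labelled" and "dim-labelled" are used throughout. Pdgfra, the gene whose promoter drives the GFP, measured 5.54 and 5.29 on the bright-labelled PNX dnFGFR arrays and 6.92 and 6.99 on the dim-labelled ones. Its difference was -1.54 ± 0.17 (adjusted p = 0.00017), a 2.91-fold lower level on the arrays labelled bright. The same direction was measured in SHAM (-1.85) and PNX (-1.86), so the order of Pdgfra transcript and label was alike in all 3 conditions. This rests on the only probe set read for Pdgfra, whose bright-labelled PNX dnFGFR values lay close to the filter of 5.101. Sorting was by GFP and not by this transcript. The labels were kept as given. Pdgfrb, the second PDGF receptor and a marker of pericytes and vascular smooth muscle, differed the other way, at 9.30 and 9.21 against 6.29 and 5.95 (3.13 ± 0.25, adjusted p = 3.5e-05). Pdgfrl, a PDGF receptor-like gene, was also higher on the bright-labelled arrays (1.36 ± 0.2).

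Of the 11073 genes tested, 3812 passed (34.4%), 2320 of them higher on the bright-labelled arrays (21%) and 1492 lower (13.5%). These shares are the background for the counts of each list below. A difference over 2-fold was measured in 1187 of the higher and 716 of the lower genes. The arrays of the 2 subsets did not overlap for any of the 3812 genes, and they did not overlap for 7930 of all genes tested (71.6%). After another quantile normalization the median difference over all genes moved from 0.062 to -0.062, and the split became 1844 higher and 1959 lower. Arrays of the same subset correlated at 0.976 (bright-labelled) and 0.971 (dim-labelled) across genes, and arrays of different subsets at 0.804 to 0.823. Leaving out a PNX dnFGFR array gave 2429 calls without bright-labelled replicate 1 and 2453 without bright-labelled replicate 2. Among markers of other cells, signal was summed over the 14 mesothelial genes on the array, tested or not. The sum was 3940 and 5197 on the bright-labelled and 629 and 738 on the dim-labelled arrays. On the other bright-labelled arrays it was 3300 to 5758, and on the other dim-labelled arrays 686 to 2876.

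Genes of adventitial fibroblasts, the cells of the cuffs around vessels and airways, were mostly higher on the bright-labelled arrays. Of 21 tested markers 18 were higher on the bright-labelled arrays and 1 lower, with a median difference of 2.41, against 21% and 13.5% of all genes. Scara3, a scavenger receptor, measured 9.92 and 10.12 on the bright-labelled arrays and 2.83 and 2.80 on the dim-labelled ones, a difference of 7.21 ± 0.31 (adjusted p = 1.7e-06, held difference 4.92). Both dim-labelled values lie below the level of detection used here, so the size of that difference is uncertain. Lum, a small proteoglycan that spaces collagen fibrils, measured 8.21 and 8.23 against 2.70 and 2.34 (held difference 3.12). Scara5, a ferritin receptor, measured 8.17 and 8.72 against 2.69 and 2.84 (held difference 3.34). Each of these 3 genes was below 5.101 on both dim-labelled arrays and well above it on both bright-labelled arrays. Dcn, decorin, a proteoglycan that binds collagen and growth factors, was 11.98 and 12.17 against 5.72 and 7.86, and the dim-labelled replicates differed from each other by over 2 units. Pi16, a marker of adventitial progenitor cells, was 6.50 and 6.96 against 5.02 and 4.91 (1.76 ± 0.21, held difference 1.63). Cd34, a sialomucin of stromal and vascular cells, was 9.77 and 9.78 against 8.91 and 8.81 (0.91 ± 0.14). Gsn, gelsolin, which cuts actin filaments, was the 1 marker that fell (-0.52 ± 0.17, adjusted p = 0.039), and it lost its call without bright-labelled replicate 1 (adjusted p = 0.24) and without either dim-labelled array (0.066 and 0.17). Clec3b and Dpt did not pass, at 0.35 and 0.45.

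Alveolar fibroblast genes ran the other way as a block. Of 21 tested markers 20 were lower on the bright-labelled arrays and 0 higher, against 13.5% and 21% of all genes. Their median difference was -2.93, and Spint2 alone did not pass (-0.01, limma, adjusted p = 0.98). Slc7a10, an amino acid transporter, measured 4.10 and 4.25 on the bright-labelled arrays and 10.41 and 10.81 on the dim-labelled ones, a difference of -6.44 ± 0.17 (adjusted p = 2.3e-07, held difference -5.51). Itga8, the integrin alpha 8 chain that pairs with beta 1, measured 6.62 and 6.07 against 10.59 and 10.69 (-4.3 ± 0.2). Npnt, nephronectin, the matrix ligand of that integrin, measured 9.60 and 9.25 against 12.10 and 12.08 (-2.67 ± 0.23). Receptor chain and ligand were thus both lower on both bright-labelled arrays, with no overlap. Cdo1, cysteine dioxygenase, was 6.57 and 6.30 against 10.93 and 11.09 (-4.57 ± 0.21). Tcf21, a transcription factor of lung mesenchyme and lipofibroblasts, was 7.40 and 6.99 against 10.22 and 10.67 (-3.25 ± 0.3). Ces1d, a lipid-hydrolysing carboxylesterase, was 4.71 and 7.47 against 10.41 and 10.57, so its 2 bright-labelled replicates stood almost 3 units apart while still below both dim-labelled arrays. In bulk samples such as these, fewer cells of a type and less RNA per cell cannot be told apart.

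**Figure D1:**
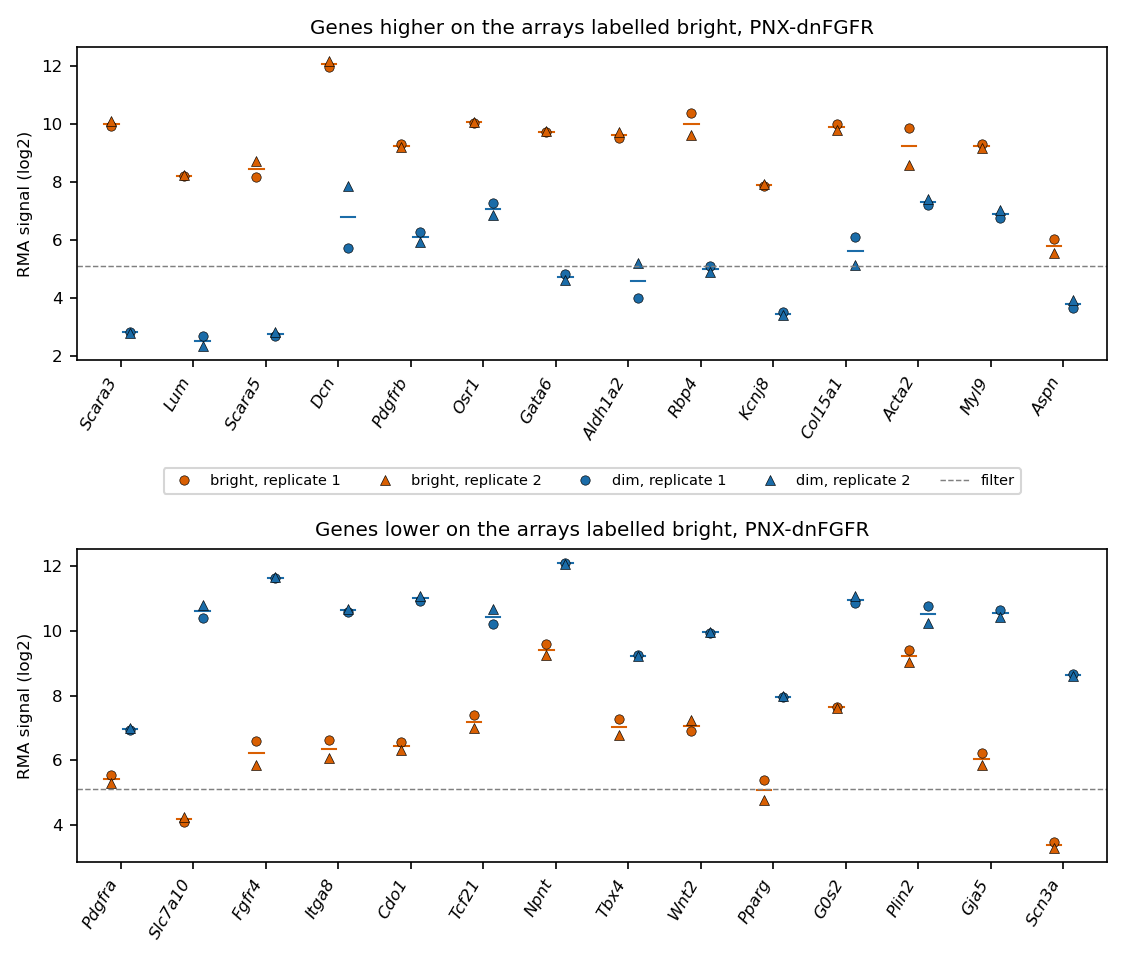
RMA signal (log2) of 14 genes higher (upper panel) and 14 genes lower (lower panel) on the bright-labelled PNX dnFGFR arrays. Points are single arrays (orange bright-labelled, blue dim-labelled, circles replicate 1, triangles replicate 2), short lines are means of 2 arrays, and the dashed line is the filter at log2 5.101. For every gene drawn both arrays of one label lie on the same side of both arrays of the other, and Pdgfra is among the lower genes, at 5.54 and 5.29 against 6.92 and 6.99.

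Genes of lipid handling fell with the alveolar markers, with exceptions. Of 15 tested lipid storage and lipofibroblast genes 7 were lower on the bright-labelled arrays and 3 higher. Among all genes 13.5% were lower and 21% higher, so the higher members did not exceed their share. G0s2, an inhibitor of triglyceride breakdown, was 7.66 and 7.63 against 10.87 and 11.07 (-3.33 ± 0.22, adjusted p = 1.3e-05). Dgat2, which completes triglyceride synthesis, was lower by -2.76 ± 0.2, and Lrat, which esterifies retinol for storage, by -3.51 ± 0.45. Pparg, the master regulator of adipocyte genes, was 5.38 and 4.76 against 7.94 and 7.99. Plin2, which coats lipid droplets, was 9.40 and 9.04 against 10.78 and 10.25 (-1.3 ± 0.21). All these genes were lower on both bright-labelled arrays than on either dim-labelled one. Fabp4, a fatty acid carrier of adipocytes, macrophages and capillary endothelium, differed in the opposite direction, at 9.86 and 9.99 against 5.42 and 5.80 (4.31 ± 0.9). Fabp5, a related carrier, passed narrowly (2.07 ± 0.71, adjusted p = 0.049) and lost the call without any 1 of the 4 arrays (adjusted p between 0.1 and 0.18).

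Markers of myofibroblasts, smooth muscle and pericytes were divided between the subsets. Of 13 tested alveolar myofibroblast genes 6 were higher and 2 lower on the bright-labelled arrays, of 14 contractile genes 5 were higher and 4 lower, and of 8 pericyte genes 3 were higher and 2 lower. Across all genes 21% were higher and 13.5% lower. The higher contractile genes numbered 2 without bright-labelled replicate 1 or with the mean of probe sets, and 3 without bright-labelled replicate 2 or dim-labelled replicate 1. The higher myofibroblast genes numbered 4 with the mean of probe sets. Acta2, smooth muscle actin, measured 9.88 and 8.59 against 7.21 and 7.41 (1.93 ± 0.45, adjusted p = 0.0092). A second Acta2 probe set gave -0.56, with 6.41 and 5.21 against 6.63 and 6.11, and without bright-labelled replicate 1 the first gave 1.28 (adjusted p = 0.069), so the direction of Acta2 depends on the probe set. Myl9, the regulatory light chain of smooth muscle myosin, was 9.31 and 9.18 against 6.75 and 7.03 (2.36 ± 0.22), and Tpm2, beta tropomyosin, was 10.06 and 9.80 against 7.68 and 7.84. Mylk, the kinase that phosphorylates that light chain, was lower, at 9.42 and 8.83 against 10.86 and 10.88 (-1.75 ± 0.21). Vcl and Flna, which link actin to adhesions and to membranes, were lower as well (-1.45 ± 0.23 and -0.79 ± 0.16), so the contractile apparatus did not move as 1 block. Aspn, asporin, was 6.03 and 5.56 against 3.65 and 3.92 (held difference 0.7). Tgfbi, a matrix protein induced by TGF-beta, was 8.91 and 9.58 against 6.73 and 7.18 (2.29 ± 0.34). Hsd11b1, which regenerates active glucocorticoid, was lower, at 7.87 and 7.53 against 11.21 and 11.23 (-3.52 ± 0.29). Of the pericyte list, Kcnj8, a potassium channel subunit, was 7.87 and 7.93 against 3.52 and 3.41 (4.44 ± 0.15, held difference 2.8). Gucy1b1, a subunit of the nitric oxide receptor, was lower (-3.32 ± 0.32, held difference -2.45). A further 4 pericyte genes on the array were not tested, and they lay below 5.101 on all 4 PNX dnFGFR arrays.

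**Figure D2:**
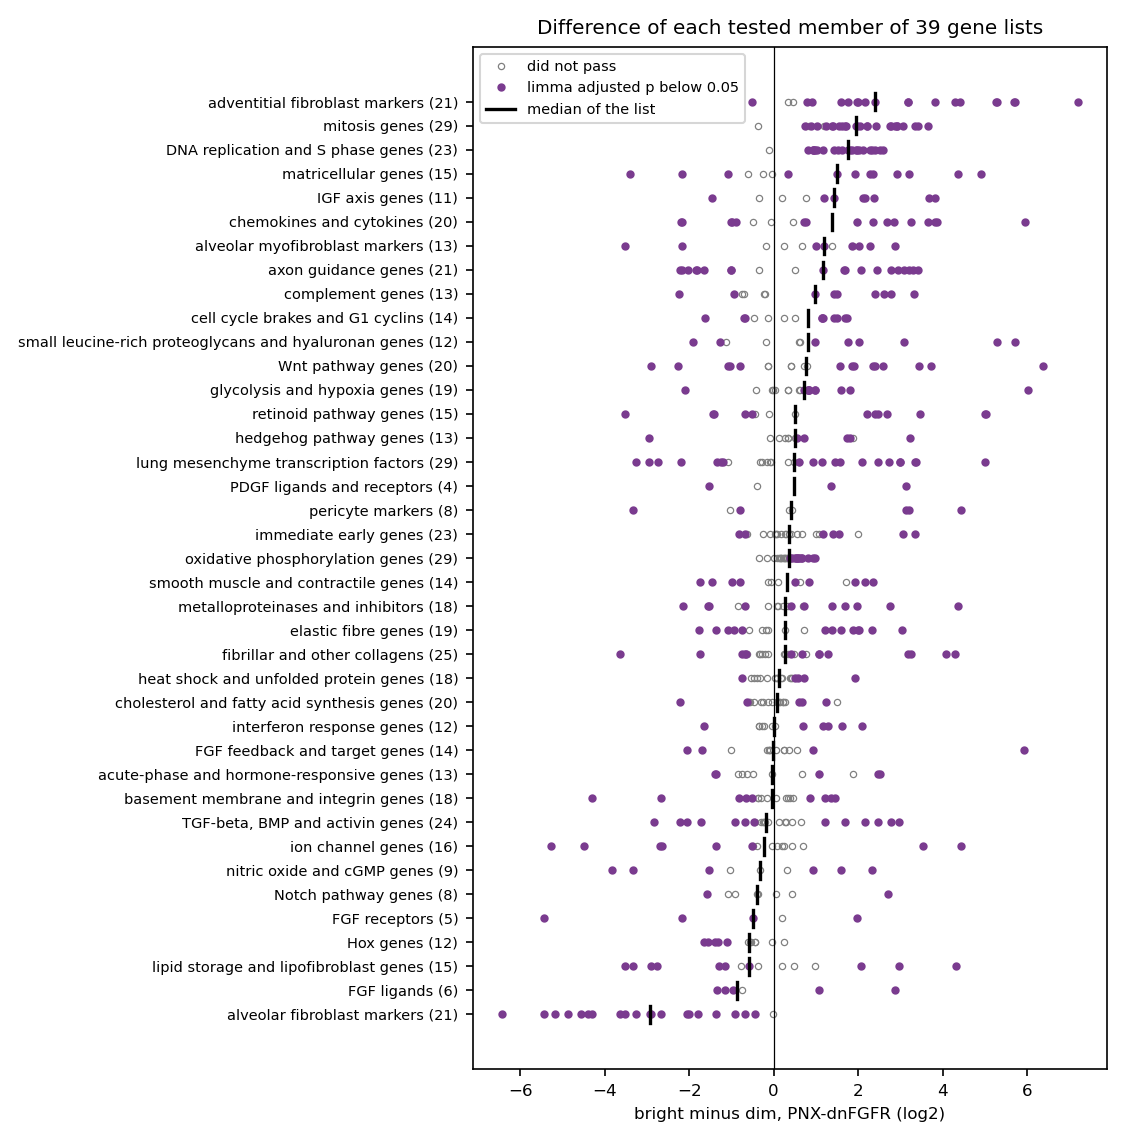
Difference bright minus dim in PNX dnFGFR (log2, horizontal axis) of every tested member of 39 gene lists (rows, number of tested members in brackets, ordered by the median, which is the black bar). Filled points passed limma's adjusted p below 0.05 and open points did not. Adventitial, mitosis and S phase genes lie at the top with medians of 2.41, 1.96 and 1.76, and alveolar fibroblast genes at the bottom with -2.93.

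Matrix genes changed in composition, with the most abundant fibre proteins near equality. Of 25 tested collagens 9 were higher and 5 lower on the bright-labelled arrays, and the elastic fibre list had 8 higher and 5 lower among 19 tested. The shares over all genes were 21% and 13.5%. The higher collagens numbered 6 without bright-labelled replicate 1 or dim-labelled replicate 2, and the lower ones 2 without bright-labelled replicate 2 and 3 without dim-labelled replicate 1. Col1a1 measured 12.46 and 12.41 against 12.12 and 11.94 (0.41 ± 0.12, adjusted p = 0.032), a 1.33-fold difference, and its adjusted p was 0.098 to 0.17 without dim-labelled replicate 2 or either bright-labelled array. Col3a1 (0.25, adjusted p = 0.19) and Eln, elastin (-0.19, adjusted p = 0.35), did not pass. Larger differences were found in minor collagens. Col15a1, a basement membrane collagen, was 10.01 and 9.79 against 6.10 and 5.13 (4.29 ± 0.38), Col14a1, which binds fibril surfaces, was higher by 3.18 ± 0.44, and Col5a3, a fibril-nucleating chain, by 4.07 ± 0.48. Col13a1, a membrane collagen that marks alveolar fibroblasts, was lower, at 6.20 and 5.50 against 9.64 and 9.32 (-3.63 ± 0.35).

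Among elastic fibre genes the members divided by microfibril protein. Mfap5 and Mfap2, which bind fibrillin, were higher by 1.99 ± 0.19 and 2.01 ± 0.2, and Emilin2 by 3.03 ± 0.23. Mfap4, an elastin-binding protein, was lower, at 10.85 and 10.56 against 12.10 and 12.06 (-1.37 ± 0.17), as were Ltbp1 and Ltbp4, which hold latent TGF-beta (-1.08 ± 0.17 and -0.74 ± 0.15), and Efemp1, fibulin 3 (-1.76 ± 0.17). The crosslinking enzyme Loxl2 was higher by 1.87 ± 0.18.

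Of 15 matricellular genes 9 were higher and 3 lower, against 21% and 13.5% of all genes. Cthrc1, a secreted protein of activated fibroblasts in fibrosis, was 7.58 and 7.02 against 3.09 and 2.76 (4.37 ± 0.24, held difference 2.2). Postn, periostin, a matrix protein of fibroblast activation, was 8.06 and 7.39 against 4.71 and 4.35 (3.2 ± 0.24, held difference 2.62). Tnc, tenascin C, was lower instead, at 8.95 and 8.38 against 11.34 and 10.32 (-2.16 ± 0.4), and Ccn5, a CCN family member, was lower by -3.39 ± 0.3. Of 18 metalloproteinases and inhibitors 7 were higher and 4 lower, with Mmp23 at 10.23 and 10.37 against 5.73 and 6.16 and the aggrecan-cutting enzyme Adamts5 at 9.46 and 9.31 against 7.04 and 7.80. Without bright-labelled replicate 1 or dim-labelled replicate 2, 3 of the 18 were higher. Mmp11 was lower by -1.56 ± 0.17 and Adamts8 by -2.14 ± 0.3.

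FGF receptor genes differed between the subsets in both directions. Of 5 tested receptor genes 1 was higher and 3 were lower on the bright-labelled arrays, and of 6 tested ligands 2 were higher and 3 lower. Across all genes 21% were higher and 13.5% lower. Fgfr4 measured 6.59 and 5.84 on the bright-labelled and 11.63 and 11.67 on the dim-labelled arrays, a difference of -5.44 ± 0.26 (adjusted p = 3.1e-06) and 43.3-fold. All 5 of its probe sets were lower, by -3.68 to -5.58. Fgfr3 measured 8.83 and 8.58 against 10.86 and 10.89 (-2.17 ± 0.3, adjusted p = 0.00068). Both receptors were at their highest on the dim-labelled arrays with little spread. Fgfr2, the receptor whose dominant negative form these animals express, was higher on the bright-labelled arrays, at 9.38 and 9.38 against 7.25 and 7.57 (1.97 ± 0.36, adjusted p = 0.0029). A second probe set gave 2.28 and the remaining one, below 5.101 on all 4 arrays, gave -0.12. Whether these probe sets also read the transgene was not tested, and in the PNX arrays without it Fgfr2 was 9.39 and 9.21 on the bright-labelled against 8.18 and 7.09 on the dim-labelled arrays. Fgfr1 was 9.92 and 10.15 against 10.42 and 10.62 (-0.48 ± 0.16, adjusted p = 0.043), and lost its call without any 1 of the 4 arrays (adjusted p between 0.058 and 0.23). Fgfrl1, a receptor-like protein without a kinase domain, did not pass (0.19).

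Among the ligands, those that lung mesenchyme makes for epithelium were lower on the bright-labelled arrays. Fgf10, the ligand that drives branching and epithelial progenitor growth, measured 7.94 and 7.19 against 8.98 and 8.83 (-1.34 ± 0.3, adjusted p = 0.0077). Fgf7, keratinocyte growth factor, measured 8.52 and 7.93 against 9.38 and 9.36 (-1.15 ± 0.25, adjusted p = 0.0066). Neither gene's arrays overlapped between the labels, but without bright-labelled replicate 2 their adjusted p rose to 0.063 and 0.056. Fgf2 was lower by -0.97 ± 0.16. Fgf18, a ligand of alveolar myofibroblasts, was higher, at 7.55 and 8.20 against 5.09 and 4.90 (2.88 ± 0.33, adjusted p = 0.00023, held difference 2.77). In SHAM the differences of Fgf10 and Fgf7 were -0.01 and -0.24, and in PNX -0.26 and -0.12. Tested directly, 0 of the 6 ligands passed for the difference of PNX dnFGFR from SHAM or from PNX.

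Of 14 tested feedback and target genes 2 were higher, below the 21% of all genes, and 2 lower, near the 13.5% of all genes. The other 10 did not pass. The sprouty genes differed one from another. Spry4 measured 8.33 and 8.48 against 9.94 and 10.24 (-1.69 ± 0.16, adjusted p = 9.1e-05), Spry1 measured 6.82 and 6.37 against 8.68 and 8.59 (-2.04 ± 0.3), and Spry2 measured 8.40 and 8.53 against 8.50 and 8.30 (0.06, adjusted p = 0.84). Dusp6, the phosphatase that switches off ERK, had a difference of -1.01 that did not pass (adjusted p = 0.068), and Etv5, an ERK-induced transcription factor, one of 0.55 (adjusted p = 0.32). Flrt2, a membrane protein that binds FGF receptors and guidance receptors, was 10.48 and 10.44 against 5.03 and 4.05 (5.92 ± 0.45, held difference 5.36), among the 12 highest rises by held difference.

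**Figure D3:**
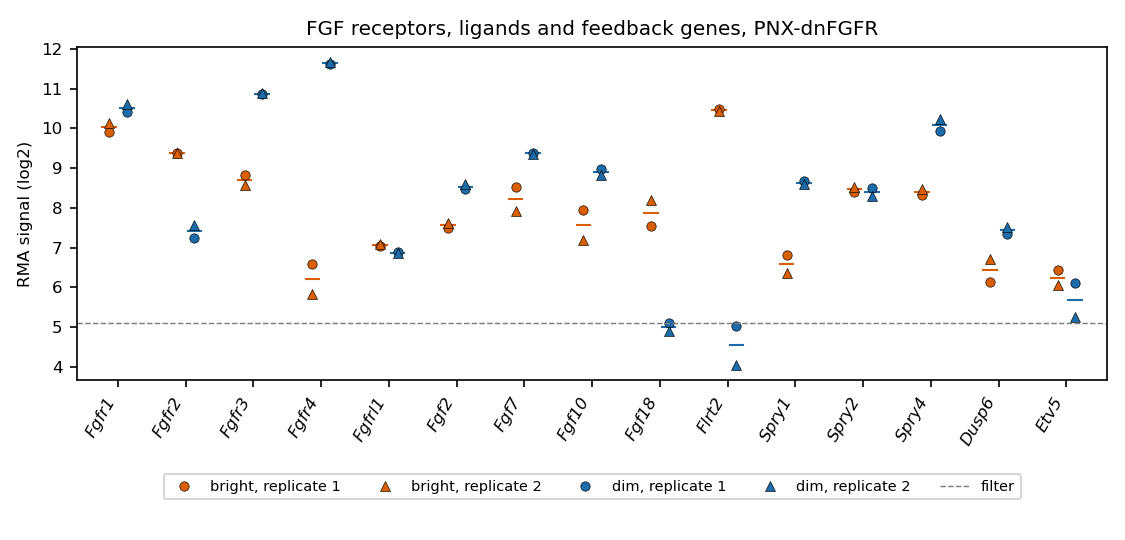
RMA signal (log2) of FGF receptor, ligand and feedback genes on the 4 PNX dnFGFR arrays, drawn as in the plot of marker genes. Fgfr4 lies at 11.63 and 11.67 on the dim-labelled and at 6.59 and 5.84 on the bright-labelled arrays, Fgfr2 lies the other way round, and Spry2 lies at the same level on all 4 arrays.

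Genes of other signalling pathways differed in both directions. In the hedgehog pathway, through which epithelium keeps the mesenchyme of the lung quiescent, 5 of 13 tested genes were higher and 1 lower. These compare with 21% and 13.5% of all genes. Cdon, a co-receptor, measured 8.23 and 8.16 against 5.10 and 4.84 (3.23 ± 0.18, held difference 3.09), and Gas1, a second co-receptor, was higher by 1.74 ± 0.18. Gli1, a target that reads pathway activity, was 6.64 and 6.34 against 4.93 and 4.42 (1.81 ± 0.35, held difference 1.39). The targets Ptch1 and Hhip did not pass, at 0.12 and 1.88 (adjusted p = 0.087), the latter with 8.75 and 7.21 against 7.19 and 5.00. Foxf2, a forkhead factor, was lower, at 6.68 and 5.48 against 9.31 and 8.75 (-2.95 ± 0.35).

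Of 20 tested Wnt pathway genes 9 were higher and 5 lower, against 21% and 13.5% of all genes. Sfrp2, a secreted Wnt binder, was 10.75 and 10.26 against 4.09 and 4.15 (6.38 ± 1.23, held difference 5.4). Fzd2 and Fzd4, Wnt receptors, were higher by 2.4 ± 0.32 and 1.58 ± 0.19. The genes that were lower included Wnt2, a ligand of distal lung mesenchyme, at 6.89 and 7.24 against 9.95 and 9.97 (-2.9 ± 0.23), and the feedback genes Axin2 (-1.04 ± 0.16) and Notum (-2.26 ± 0.19, held difference -2.09). Wnt9a, another ligand, was higher (1.9 ± 0.25, held difference 1.63), and the co-receptor Lrp5 was lower (-1.09 ± 0.18). In the TGF-beta, BMP and activin list 6 of 24 tested genes were higher and 7 lower, against the same shares of all genes. Bmp4 and Bmp5, BMP ligands, were lower by -2.04 ± 0.24 and -2.21 ± 0.28, while Tgfb3 was higher, at 9.66 and 9.38 against 7.49 and 7.21 (2.17 ± 0.22), with Inhba, the activin A chain (held difference 1.52), and its binding protein Fst, follistatin (held difference 2.45).

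Genes of the insulin-like growth factor axis were more often higher than lower, and retinoid genes were divided. Of 11 tested IGF axis genes 7 were higher and 1 lower, against 21% and 13.5% of all genes. Igf1, the growth factor, measured 11.48 and 11.53 against 10.21 and 10.42 (1.19 ± 0.14), and Igfbp4, which restrains it, 11.40 and 11.26 against 8.96 and 9.38 (2.16 ± 0.19). Igfbp5 was 8.66 and 8.59 against 4.97 and 4.67 (held difference 3.53), and Igfbp3 was the 1 lower member (-1.45 ± 0.41). Without bright-labelled replicate 1 Igfbp3 was at -0.81 (adjusted p = 0.16), and its call was also lost without dim-labelled replicate 2 (adjusted p = 0.15) and with the 4 arrays alone (adjusted p = 0.077). Of 15 tested retinoid genes 7 were higher and 5 lower, and 2 were lower without bright-labelled replicate 2. Aldh1a2, which makes retinoic acid, was 9.52 and 9.74 against 3.99 and 5.21 (held difference 4.48), and Aldh1a1, another enzyme of that step, was lower, at 9.64 and 9.78 against 11.11 and 11.14 (-1.42 ± 0.31), as was Adh1, which oxidises retinol (-0.68 ± 0.15). Cyp26b1, which degrades retinoic acid, was 6.98 and 7.32 against 5.21 and 4.69 (2.2 ± 0.22, held difference 1.99), and Crabp2, which carries it to the nucleus, 8.12 and 7.62 against 4.88 and 5.51 (2.68 ± 0.3, held difference 2.57). Aldh1a2 is also a mesothelial marker.

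Transcription factors of lung mesenchyme were divided between the subsets as well. Of 29 tested 13 were higher and 7 lower, against 21% and 13.5% of all genes. Gata6 measured 9.72 and 9.75 against 4.83 and 4.62 (5.01 ± 0.46, held difference 4.63), Osr1, a factor of mesenchymal progenitors, 10.05 and 10.08 against 7.28 and 6.85 (3.0 ± 0.21), and Twist2 8.18 and 7.53 against 4.43 and 4.54. Tbx4, a T-box factor that marks lung mesenchyme from its origin, was lower, at 7.28 and 6.79 against 9.25 and 9.21 (-2.2 ± 0.17), as was Tbx2 (-2.73 ± 0.31). Of 12 tested Hox genes, which hold positional identity, 5 were lower and 0 higher, with a median of -0.58. Hoxb4 was 6.71 and 6.23 against 7.46 and 7.68 (-1.1 ± 0.21) and Hoxb5 was lower by -1.31 ± 0.29, while Hoxa5, which patterns the lung, had a difference of -0.57 that did not pass (adjusted p = 0.061). In SHAM and in PNX 0 Hox genes passed, but 0 passed for the difference between conditions either, and at an unadjusted p below 0.05 5 of 12 lay below SHAM and 1 below PNX. Hoxb6 and Hoxb8 lost their calls with held values (adjusted p = 0.053 and 0.059), and Hoxb5 without bright-labelled replicate 2 (adjusted p = 0.058), where 3 Hox genes in all were lower.

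Cell cycle genes were raised on the bright-labelled arrays across both phases. Of 23 tested genes of DNA replication and S phase 22 were higher and 0 lower, against 21% and 13.5% of all genes. Their median difference was 1.76. Of 29 tested mitosis genes 25 were higher and 0 lower, with a median of 1.96, and 1.26 with low values held at the filter. A further 7 S phase and 6 mitosis genes on the array did not meet the filter and were not tested. Because a gene could meet it through the bright-labelled arrays alone, these shares depend on the filter. Birc5, survivin, a subunit of the chromosomal passenger complex, measured 7.68 and 7.14 against 4.37 and 4.31 (3.07 ± 0.22, adjusted p = 2.2e-05, held difference 2.31). Prc1, which bundles microtubules at the midzone, measured 8.39 and 7.77 against 4.79 and 4.05 (3.66 ± 0.36, held difference 2.98). Ccna2, cyclin A2, measured 8.83 and 8.22 against 5.48 and 5.75 (2.91 ± 0.35, adjusted p = 0.00029). In each case both bright-labelled arrays were high, replicate 1 more than replicate 2, and both dim-labelled arrays were low. Mki67, the proliferation marker Ki-67, was 7.99 and 7.27 against 4.46 and 5.28 (2.76 ± 0.68, adjusted p = 0.012, held difference 2.44), and did not pass without bright-labelled replicate 1 (adjusted p = 0.08) or dim-labelled replicate 1 (adjusted p = 0.075). Of the S phase genes, Rfc3, a clamp loader subunit, was 7.41 and 7.16 against 4.88 and 4.66 (2.51 ± 0.23, held difference 2.18), Rrm1, the large subunit of ribonucleotide reductase, 8.06 and 7.91 against 6.12 and 6.33 (1.76 ± 0.18), and Uhrf1, which maintains DNA methylation, 8.04 and 7.67 against 5.65 and 6.36 (1.85 ± 0.26). The 4 mitosis genes that did not pass were Ccnb2 (1.19), Plk1 (0.83), Kif22 (0.77) and Aurka (-0.37). Without bright-labelled replicate 1 the mitosis genes that passed numbered 17 and the S phase genes 15.

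The same lists were less marked in the other conditions. In SHAM 2 S phase and 0 mitosis genes were higher on the bright-labelled arrays, where 11.5% of all genes were, and in PNX 8 and 12 were, where 11.4% of all genes were. Birc5 measured 5.49 and 5.47 on the bright-labelled and 5.40 and 5.14 on the dim-labelled SHAM arrays, and 6.35 and 5.83 against 4.13 and 4.29 in PNX. The difference of Birc5 in PNX dnFGFR exceeded that in SHAM by 2.86 ± 0.31 (limma, adjusted p = 0.031), and it exceeded that in PNX by 1.19 (unadjusted p = 0.0038, which did not pass after adjustment). For Prc1 the excess over SHAM was 2.99 ± 0.52 (adjusted p = 0.078) and for Ccna2 2.55 ± 0.49 (adjusted p = 0.093), and these did not pass. At an unadjusted p below 0.05, 17 of the 23 S phase genes and 20 of the 29 mitosis genes lay above SHAM, against 6.46% of all genes, and 5 and 6 lay above PNX, against 3.77% of all genes. On the PNX dnFGFR arrays the mesothelial sum was also higher with the bright label, and Hba-a1, a haemoglobin chain of red cells, measured 10.24 and 10.18 against 5.95 and 5.91 (adjusted p = 0.11 over the 12 arrays and 0.00023 with the 4 arrays alone). Their part in the cell cycle result was not tested.

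**Figure D4:**
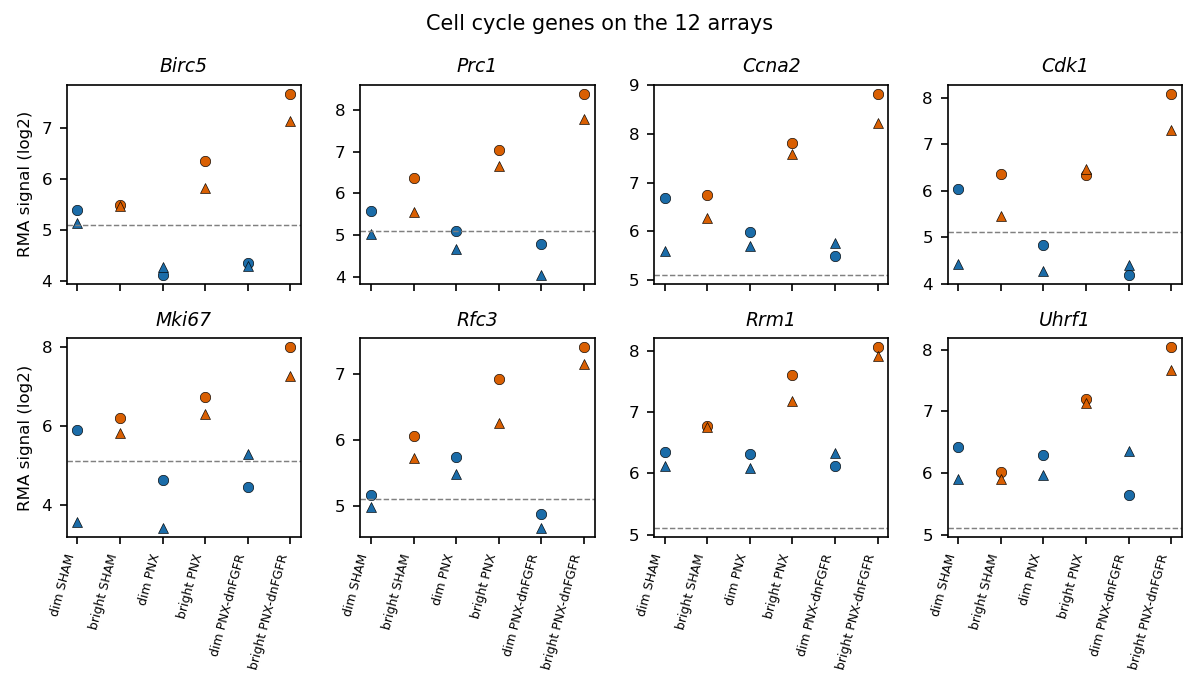
RMA signal (log2) of 8 cell cycle genes on all 12 arrays, 2 per group (circles replicate 1, triangles replicate 2, orange bright-labelled, blue dim-labelled), with the filter as a dashed line; each panel has its own vertical axis. The bright-labelled PNX dnFGFR arrays are the highest in all 8 panels, with Birc5 at 7.68 and 7.14 against 6.35 and 5.83 in bright-labelled PNX.

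Because these genes moved together, the promoters of their list were read for the motifs through which cell cycle genes are known to be switched. The cell cycle homology region (CHR: TTTGAA or TTCGAA), the CCAAT box (CCAAT) and the E2F site (TTTCCCGC, TTTGGCGC, TTTCGCGC or TTTGCCGC) were searched on both strands in the 250 bases before each start, in RefSeq promoters of build GRCm38.p6. Of 37 listed mitosis genes 31 matched, of which 38.7% held a CHR and 80.6% a CCAAT box, against 19.6% and 37.5% of 27025 genes with a promoter. Among 25 of 31 listed S phase genes that matched, 28.0% held an E2F site, against 2.2% of all. Among the 8919 genes tested on the arrays that matched, 14.6% held a CHR, 39.7% a CCAAT box and 3.8% an E2F site. A match is a run of letters and not a shown binding site. The 100 bases before the start of 7 genes follow, chosen after the search to show each motif, with matches in capitals; an ATTGG is a CCAAT box and a TTCAAA a CHR read from the other strand, and no motif overlaps another in these windows.
Cdk1 (mitotic kinase, chr10:69352913-69353012, minus strand): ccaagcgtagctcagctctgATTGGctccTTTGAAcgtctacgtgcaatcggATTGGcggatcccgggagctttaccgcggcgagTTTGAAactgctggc
Prc1 (midzone bundler, chr7:80294376-80294475, plus strand): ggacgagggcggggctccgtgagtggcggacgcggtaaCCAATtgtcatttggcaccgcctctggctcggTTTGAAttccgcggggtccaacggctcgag
Kif11 (spindle kinesin, chr19:37376282-37376381, plus strand): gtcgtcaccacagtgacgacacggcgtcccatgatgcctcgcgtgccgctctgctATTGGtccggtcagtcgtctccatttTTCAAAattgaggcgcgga
Ube2c (ubiquitin enzyme of the anaphase-promoting complex, chr2:164769829-164769928, plus strand): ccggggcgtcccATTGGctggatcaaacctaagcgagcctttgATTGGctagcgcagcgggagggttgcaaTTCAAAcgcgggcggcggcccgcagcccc
Mcm6 (replicative helicase, chr1:128359706-128359805, minus strand): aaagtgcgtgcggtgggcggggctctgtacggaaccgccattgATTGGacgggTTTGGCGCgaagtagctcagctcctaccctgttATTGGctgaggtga
Rfc3 (clamp loader, chr5:151651209-151651308, minus strand): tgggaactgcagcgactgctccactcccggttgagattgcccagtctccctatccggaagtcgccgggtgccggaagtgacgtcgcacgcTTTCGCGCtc
Birc5 (survivin, chr11:117849137-117849236, plus strand): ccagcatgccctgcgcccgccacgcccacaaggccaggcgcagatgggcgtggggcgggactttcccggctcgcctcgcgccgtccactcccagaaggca
Cdk1, Prc1, Kif11 and Ube2c each held at least 1 CCAAT box followed, nearer the start, by a CHR, in Prc1 at 62 and 30 bases before the start and in Kif11 at 45 and 19. Mcm6 held an E2F site between 2 CCAAT boxes and Rfc3 an E2F site 10 bases before the start. Birc5 held none of these letters in its window. On the arrays Cdk1 measured 8.09 and 7.31 against 4.19 and 4.40, Kif11 6.67 and 6.20 against 3.33 and 3.81, Ube2c 7.84 and 7.46 against 5.29 and 6.06, and Mcm6 7.12 and 6.66 against 4.88 and 4.95.

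Inhibitors and G1 cyclins differed in both directions. Of 14 tested brakes and G1 cyclins 8 were higher and 3 lower on the bright-labelled arrays, against 21% and 13.5% of all genes. Without dim-labelled replicate 1 these counts were 5 and 1, without bright-labelled replicate 2 5 were higher, and without bright-labelled replicate 1 1 was lower. Cdkn2b, the kinase inhibitor p15, was 6.81 and 6.52 against 4.97 and 4.95 (1.7 ± 0.26, held difference 1.56), and Cdkn1c, the inhibitor p57, 7.54 and 7.57 against 5.74 and 6.49 (1.44 ± 0.26). Cdk4, the G1 kinase that p15 blocks, was higher too, by 1.14 ± 0.18. Cdkn2c, the inhibitor p18, was lower, at 6.17 and 5.95 against 7.78 and 7.57 (-1.62 ± 0.15), as were Ccnd3, cyclin D3 (-0.7 ± 0.19), and Btg2, an antiproliferative gene (-0.67 ± 0.22).

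Genes of energy metabolism moved by smaller amounts. Of 19 tested glycolysis and hypoxia genes 10 were higher and 1 lower, with a median of 0.72. Of 29 genes of oxidative phosphorylation 12 were higher and 0 lower, with a median of 0.36. These counts stand beside 21% and 13.5% of all genes. Without bright-labelled replicate 1 the higher glycolysis genes numbered 6. Pfkp and Tpi1, glycolytic enzymes, were higher by 1.59 ± 0.2 and 1.8 ± 0.25, and Pkm, pyruvate kinase, was 11.09 and 10.66 against 9.83 and 9.94 (0.99 ± 0.17). Egln3, an oxygen-sensing hydroxylase, was 8.67 and 8.81 against 2.57 and 2.83 (6.03 ± 1.06, held difference 3.63). Vegfa, the endothelial growth factor, was the 1 lower gene, at 8.54 and 8.64 against 10.84 and 10.57 (-2.11 ± 0.22). The oxidative phosphorylation calls fell to 3 without either bright-labelled array and to 6 and 4 without dim-labelled replicates 1 and 2, and stood at 9 higher and 1 lower under the other quantile normalization.

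Immune mediators were more often higher than lower on the bright-labelled arrays. Of 20 tested chemokines and cytokines 11 were higher and 5 lower, and of 13 complement genes 7 were higher and 2 lower. Cxcl16 measured 9.97 and 10.22 against 7.83 and 7.67 (2.35 ± 0.22). Il33, an alarmin cytokine of adventitial stroma, measured 7.18 and 7.32 against 3.01 and 3.84 (held difference 2.15). Cxcl13, which draws B cells, measured 11.38 and 11.41 against 6.90 and 3.98 (5.96 ± 1.28, held difference 5.4), and its dim-labelled arrays lay nearly 3 units apart; without dim-labelled replicate 2 its adjusted p was 0.051. The direction was nonetheless the same against either dim-labelled array. Without bright-labelled replicate 2 the lower chemokines and cytokines numbered 3. Cxcl14 was lower, at 8.85 and 8.35 against 10.70 and 10.84 (-2.17 ± 0.28). Cfb and C2, which build complement convertases, were higher by 2.62 ± 0.28 and 2.79 ± 0.27, and C6, of the membrane attack complex, was lower by -2.25 ± 0.3. Of 23 immediate early genes, which respond to dissociation as well as to growth factors, 5 were higher and 2 lower, near the 21% and 13.5% of all genes, and 3 were higher without bright-labelled replicate 2. Klf4 was 8.76 and 9.68 against 5.24 and 6.50 (3.35 ± 0.38) and Myc 8.04 and 8.65 against 5.82 and 4.74 (3.07 ± 0.41, held difference 2.88), while Fos, at 10.58 and 11.15 against 10.27 and 10.90, did not pass.

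By the size of the held difference, the 12 highest rises were Cyp1b1, Clu, Meg3, Fndc1, Sfrp2, Cxcl13, Flrt2, Dcn, Scara3, Rbp4, Dmkn and Ildr2. Cyp1b1, a cytochrome that metabolises retinoids and steroids, measured 11.41 and 11.12 against 2.78 and 4.35 (7.7 ± 0.77, held difference 6.16). Clu, clusterin, a secreted chaperone, measured 11.41 and 11.57 against 5.57 and 4.75 (6.33 ± 1.23, held difference 6.16). Meg3, a long non-coding RNA, measured 10.83 and 11.05 against 4.95 and 5.41 (5.76 ± 0.4, held difference 5.69). All 3 genes were above 10 on both bright-labelled arrays and below 6 on both dim-labelled ones. The 12 largest falls were Slc7a10, Fgfr4, Scube2, Mapt, Cdo1, Gja5, Itga8, Ces1d, Fam189a2, Prkg2, Fat3 and Dock4. Mapt, the microtubule protein tau, measured 5.52 and 5.01 against 9.81 and 10.05 (-4.67 ± 0.18, adjusted p = 1.1e-06, held difference -4.62), and Scube2, a secreted protein that releases hedgehog ligands, 5.46 and 5.32 against 10.10 and 10.44 (-4.88 ± 0.25).

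Markers of other cell types were also compared between the subsets. Of 11 tested mesothelial genes 6 were higher and 0 lower, with a median of 2.59. That median was smaller with low values held at the filter, so its size is uncertain. Members that did not meet the filter were not tested. A gene could meet it through the bright-labelled arrays alone, so these counts depend on the filter, as for the cell cycle lists. Nkain4 measured 10.61 and 11.13 against 7.97 and 7.13 (3.32 ± 0.4), and Upk3b, a defining marker, 7.42 and 7.88 against 4.69 and 4.52, which did not pass over all arrays (adjusted p = 0.11). Wt1 measured 4.64 and 6.13 against 2.56 and 2.26, and Msln, mesothelin, was below 5.101 on all 4 arrays, at 4.13 and 3.73 against 3.45 and 3.59. With dim-labelled replicate 2 left out, 4 of the 11 mesothelial genes were higher, and with the 4 arrays alone 9. Upk3b was also high on bright-labelled PNX replicate 1 (8.83), dim-labelled PNX replicate 1 (7.35) and bright-labelled SHAM replicate 1 (7.39), and between 3.99 and 5.10 on the other 5 arrays. Its part in the comparison was not tested.

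Summed signals in this paragraph cover every list member on the array, also those not tested. For 7 erythrocyte and platelet genes the summed signal was 1427 and 1426 on the bright-labelled and 266 and 233 on the dim-labelled arrays. Of the 5 tested, 1 was higher. On the other 8 arrays that sum ran from 280 to 4390, with high and low values under both labels. In the epithelial list 1 of 16 tested genes was higher and 1 lower, and the summed signal was 6106 and 10374 against 7879 and 6711. Sftpc, surfactant protein C, was 11.50 and 11.36 against 12.02 and 11.79 (adjusted p = 0.14). Scgb1a1, the club cell secretoglobin, was 11.19 on bright-labelled replicate 2 and 6.19, 7.04 and 7.25 on the other 3 arrays. Of 21 macrophage and dendritic cell genes 1 was higher and 1 lower (summed signal 4063 and 3644 against 5940 and 6804). Of 14 endothelial genes 2 were higher and 2 lower (2323 and 2261 against 2953 and 2977), and of 8 lymphocyte genes 0 were higher and 1 lower (274 and 305 against 428 and 528). The shares over all genes were 21% higher and 13.5% lower. Of 3 tested glial and neuronal genes 2 were higher, Ngfr at 6.76 and 7.39 against 5.28 and 4.96 and Tubb3 with a held difference of 0.91, with Sox10 below 5.101 on all 4 arrays. Fitted on the 4 arrays alone, Hba-a1 (4.28 ± 0.14, limma, adjusted p = 0.00023) was higher, and Ager (-0.98), Lyz2 (-0.81) and Chil3 (-1.04) were lower, with 5 macrophage, 5 endothelial and 3 lymphocyte genes lower. The part of these cells in the comparison was not tested. These lists hold genes that fibroblasts also express, such as Aldh1a2, Igfbp6 and Pdpn.

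Finally, the separation of the subsets in PNX dnFGFR was set against that in the other 2 conditions. In SHAM 2107 genes passed (19%), and in PNX 2042 (18.4%). Of the 3812 genes called in PNX dnFGFR, 1718 were called in the same direction in SHAM and 1 in the opposite direction, and 1777 and 0 in PNX. In all 3 conditions 1366 genes were called, and 1682 in PNX dnFGFR alone. The median size of the difference over all genes was 0.398 in PNX dnFGFR, 0.294 in SHAM and 0.289 in PNX. Tested directly, few genes differed: 14 genes passed for the difference between PNX dnFGFR and SHAM (0.126%, 11 above and 3 below), with 1401 at an unadjusted p below 0.05. The difference against PNX gave 0 genes (0%, limma, 909 at an unadjusted p below 0.05, lowest adjusted p 0.25). The difference against the mean of SHAM and PNX gave 0 genes as well (0%, 1384 unadjusted, lowest adjusted p 0.075). The 2 bright-labelled PNX arrays correlated at 0.953 with each other across genes. With the bright-labelled PNX dnFGFR arrays, PNX replicate 1 correlated at 0.977 and 0.968 and PNX replicate 2 at 0.937 and 0.933. The bearing of this on the counts was not tested. The count of 14 was not stable. Leaving out single arrays of PNX dnFGFR or SHAM gave 0 to 6 genes, leaving out either dim-labelled PNX array gave 0, and leaving out either bright-labelled PNX array gave 95. Against PNX, 50 genes passed without bright-labelled PNX replicate 1, and against the mean 256.

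Most alveolar fibroblast genes had a lower difference in PNX dnFGFR than in SHAM and PNX before adjustment, and 0 passed after it. At an unadjusted p below 0.05, 15 of 21 differed from SHAM in that direction and 14 from PNX, where 6.2% and 4.43% of all genes did, and 0 lay above. Of the 5 FGF receptor genes 3 lay below SHAM and 1 above at that threshold, and 4 lay below PNX and 0 above. In SHAM 15 and in PNX 17 of the 21 were already lower on the bright-labelled arrays, against 7.53% and 7.07% of all genes. Itga8 measured 8.32 and 8.53 on bright-labelled SHAM, 7.81 and 7.82 on bright-labelled PNX and 6.62 and 6.07 on bright-labelled PNX dnFGFR arrays, while all 6 dim-labelled arrays lay between 10.34 and 10.95. Its difference exceeded that in SHAM by -1.9 ± 0.28 (adjusted p = 0.051) and that in PNX by -1.64 (unadjusted p = 0.00021), and neither passed. Fgfr4 measured 7.98 and 8.25 on bright-labelled SHAM, 7.73 and 8.36 on bright-labelled PNX and 6.59 and 5.84 on bright-labelled PNX dnFGFR arrays, against 11.59 to 11.67 on the 6 dim-labelled arrays. For both genes the dim-labelled values lay close together in all 3 conditions, and the bright-labelled PNX dnFGFR values were the lowest of the bright-labelled ones. The difference of differences of Fgfr4 was -1.91 ± 0.37 against SHAM (adjusted p = 0.093) and -1.85 against PNX (unadjusted p = 0.00069), and neither passed. Adventitial genes showed no such pattern against PNX, with 0 of 21 in either direction, and 7 of 21 lay below SHAM.

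Among the 14 genes that passed against SHAM, the patterns on the arrays were of several kinds. Stmn2, stathmin 2, a microtubule-destabilising protein of neurons, was 7.73 and 7.49 on the bright-labelled PNX dnFGFR arrays and between 4.98 and 5.59 on the other 10 (difference from SHAM 2.44 ± 0.32, adjusted p = 0.043). Sema4a, a semaphorin, was 8.34 and 8.18 there and 7.33 or less elsewhere (2.79 ± 0.37). Tnfrsf11b, osteoprotegerin, a decoy receptor, was 7.41 and 8.04 on bright-labelled PNX dnFGFR, 6.93 and 5.63 on bright-labelled PNX and 4.44 or less on the other 8 arrays (3.89 ± 0.53). These 3 genes were high on the bright-labelled PNX dnFGFR arrays. Cthrc1 was as high on bright-labelled PNX (7.27 and 7.20) as on bright-labelled PNX dnFGFR arrays (7.58 and 7.02), and 4.32 and 4.73 on bright-labelled SHAM. Entpd2, an ectonucleotidase, was 9.23 and 9.15 on bright-labelled SHAM, 8.58 and 8.50 on PNX and 7.77 and 7.95 on PNX dnFGFR (-2.06 ± 0.22, adjusted p = 0.031). Other calls came from the dim-labelled SHAM arrays. Serpina3n, an acute-phase protease inhibitor, was 7.92 and 8.06 on dim-labelled SHAM and between 10.32 and 11.71 on the other 10 arrays, and Mpzl2, an epithelial adhesion protein, was 6.72 and 7.99 on dim-labelled SHAM and 4 or less elsewhere, so that its arrays in PNX dnFGFR were all below the filter.

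**Figure D5:**
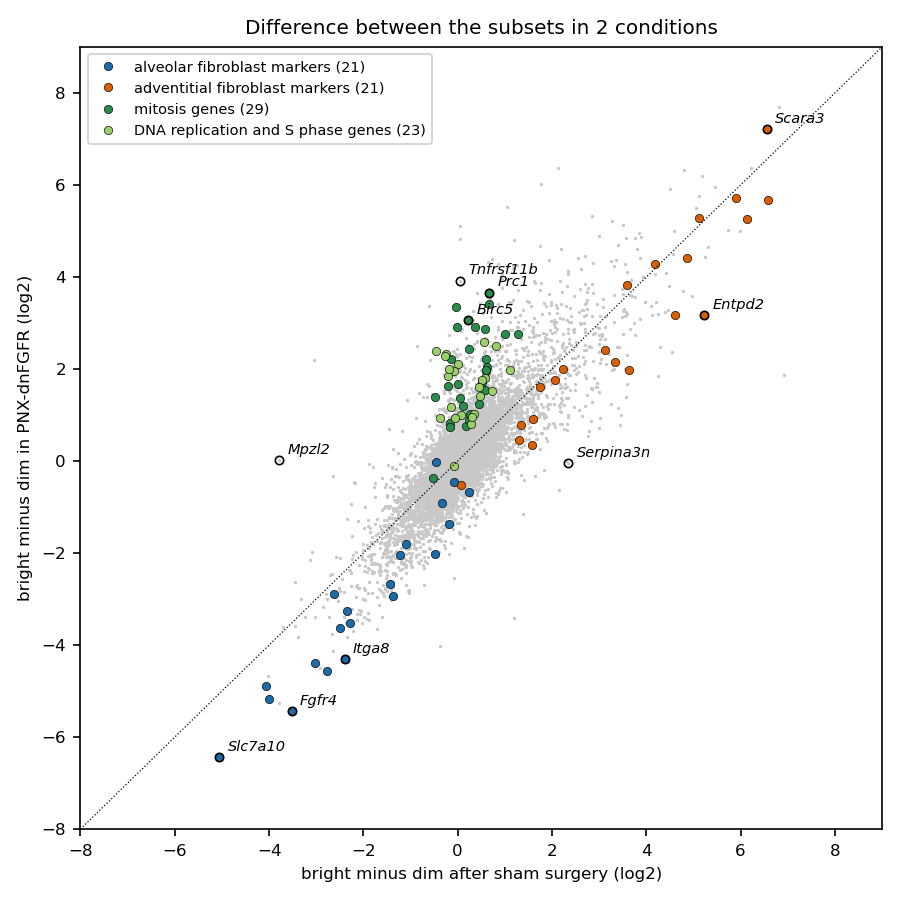
Difference bright minus dim in PNX dnFGFR (vertical axis, log2) against that in SHAM (horizontal axis, log2) for the 11073 genes tested (grey), with 4 gene lists in colour and 10 named genes ringed. The dotted line marks equal differences; most alveolar fibroblast genes lie below it and cell cycle genes above it, Birc5 at 0.22 in SHAM and 3.07 in PNX dnFGFR.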

How the data were processed

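The deposited table holds log2 signals of 45141 probe sets on 12 arrays, which the authors made by RMA, per the submitters' processing notes; the RMA version is not given in the sources used here. Of these, 28898 probe sets have 1 gene symbol, 551 several and 15588 none, and 104 are controls; each gene was read from the probe set with the highest mean. Array medians run from 5.06 to 5.13, and the number of arrays limits the precision. Group means of all 6 groups were fitted with limma 3.58.1 in R 4.3.3 to the 12 arrays, with no block, two-sided tests and Benjamini-Hochberg adjustment over 11073 genes; the fit was tested on simulated data. The labels do not say whether replicate numbers pair the samples. Deviations of same-numbered arrays correlated at 0.005 (SHAM), 0.003 (PNX) and 0.128 (PNX-dnFGFR). With so few arrays a group, these values cannot decide whether the samples are paired.

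Genes named are the 12 largest rises and falls by held difference, up to 4 members a list and direction by adjusted p, the 2 highest members of lists of other cell types, a fixed set of FGF, PDGF and fibroblast genes, and the genes past a difference of effects; further genes (Cd34, Pi16, Clec3b, Dpt, Spint2, Col3a1, Dusp6, Etv5, Spry2, Fgfrl1, Ptch1, Hhip, Hoxa5, Fos, Cdk1, Kif11, Ube2c, Mcm6, Ccnb2, Plk1, Kif22, Aurka, Wt1, Upk3b, Msln, Scgb1a1, Sox10, Cenpm and Elovl6) were added after their values were seen. The comparison, the 47 gene lists and these rules were chosen with earlier results of these data known. Also tried were testing all genes, a stricter filter (log2 6.762), another quantile normalization, the mean of probe sets, a variance trend, the 4 arrays alone, held values, replicate blocks and single arrays left out.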

Additional observations from a re-analysis of the deposited data

Results flagged for a closer look

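The 14 genes whose bright minus dim difference in PNX dnFGFR differed from that in SHAM by limma's adjusted p below 0.05 are given here as differences of differences (log2). Above SHAM were Tnfrsf11b (3.89), Mpzl2 (3.81), Birc5 (2.86), Sema4a (2.79), Cthrc1 (2.45), Stmn2 (2.44), H3c4 (2.42), Ptprn (2.28), Cenpm (2.09), Il1r2 (1.80) and Elovl6 (1.63). Below SHAM were Serpina3n (-2.40), Entpd2 (-2.06) and Tshz3 (-1.55). Birc5, the histone gene H3c4 and Cenpm, a centromere protein, belong to the cell cycle, and H3c4 measured 8.27 and 8.46 on the bright-labelled and 6.03 and 6.26 on the dim-labelled PNX dnFGFR arrays. Elovl6, a fatty acid elongase, measured 6.76 and 6.52 on bright-labelled SHAM and between 7.39 and 8.12 on the other 10 arrays. With 2 arrays a group, no group was large enough to test for a single outlying array.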

How the results depend on the processing

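The count of genes called between the subsets kept within 1.5 times of 3812 under no filter, a stricter filter, another quantile normalization and the mean of probe sets. It also did so under a variance trend, the 4 arrays alone (3540), held values and replicate blocks. With a fixed replicate block it was 3414, though the labels do not say whether replicate numbers pair the samples. With single arrays left out it ran from 2429 to 3936, and a lone array is then assumed to vary like the other groups; of the 3812 genes, 2364 still passed without bright-labelled replicate 1. Of 258 named genes 195 kept their call under each alternative that could be run for them, since the stricter filter and the mean of probe sets gave no value for some, and 2 reversed: Ramp2 (0.38 with the mean of probe sets) and Erbb3 (-0.05 with another quantile normalization), of which Erbb3 had not passed. The counts of differences of effects were not stable. Against SHAM, in place of 14, they were 8 with no filter, 22 with a stricter filter, 32 with a variance trend, 35 with held values, 2 with the replicate block, and 0 to 95 with single arrays left out. Against PNX, in place of 0, 1 gene passed with held values and 0 to 50 with single arrays left out. Against the mean, in place of 0, 19 passed with a stricter filter, 3 with a variance trend, 30 with held values and 0 to 256 with single arrays left out. The cause was not tested. The fits that left out arrays of groups outside a comparison were chosen after seeing the data. With 2 arrays a group and no detection calls used, values below log2 5.101 are not shown to lie above background.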

Other observations

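Axon guidance genes, which also steer cell contacts in lung mesenchyme, were divided between the subsets more than most lists. Of 21 tested 11 were higher and 8 lower on the bright-labelled PNX dnFGFR arrays, against 21% and 13.5% of all genes. Epha4, an ephrin receptor, measured 7.78 and 7.86 against 4.29 and 4.51 (3.42 ± 0.17, held difference 2.72), and Efna5, an ephrin, 8.82 and 8.96 against 5.77 and 5.43 (3.29 ± 0.24). Sema3f, a secreted semaphorin, was 7.83 and 8.08 against 5.36 and 5.67. Slit2, a secreted repellent, was lower, at 7.57 and 7.24 against 9.12 and 9.31 (-1.81 ± 0.16), and with it Nrp1, a semaphorin and VEGF co-receptor (-1.66 ± 0.2) and Robo2, a Slit receptor (-2.21 ± 0.21, held difference -0.83).

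Ion channel and cyclic GMP genes differed in both directions. Of 16 tested channel genes 2 were higher and 6 lower, and of 9 nitric oxide and cyclic GMP genes 3 were higher and 3 lower. Beside the 21% and 13.5% of all genes, the higher channel genes did not exceed their share. Scn3a, a voltage-gated sodium channel, measured 3.47 and 3.28 against 8.68 and 8.62 (held difference -3.55), and Gja5, a gap junction protein, 6.22 and 5.86 against 10.66 and 10.43 (-4.5 ± 0.35), while Gja1, another gap junction protein, was higher, at 9.18 and 9.13 against 5.85 and 5.39 (3.53 ± 0.51). The L-type calcium channel genes Cacna1c and Cacna1d were lower by -2.7 ± 0.24 and -2.64 ± 0.31. Prkg2, a cGMP-dependent kinase, was 5.87 and 5.70 against 9.52 and 9.70 (-3.83 ± 0.23), and of the natriuretic peptide receptors Npr1 was higher (2.34 ± 0.4) and Npr2 lower (-1.52 ± 0.19).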
